A study of Mus musculus with 27 samples.

Results

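The genes described here encode the BAF chromatin remodelling complexes, with the ATPases of 4 related remodellers beside them. They were taken by name from the array's annotation: 32 genes were listed and all 32 were measured, among 19935 genes in all. Of the 32, 28 encode BAF subunits or their variants and 4, Smarca1, Smarca5, Chd4 and Chd7, encode ATPases of the ISWI and CHD families. A gene was read through a probe set assigned to its symbol alone, and where it had several, through the probe set with the highest mean.

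BAF complexes, the mammalian relatives of yeast SWI/SNF, use ATP to slide or evict nucleosomes and so open or close DNA to transcription factors. Each complex holds either BRG1 (Smarca4) or BRM (Smarca2) as its motor, built on a shared core, and is sorted by further subunits into canonical BAF, PBAF and non-canonical BAF. In the heart, the variant subunits BAF60c (Smarcd3) and BAF45c (Dpf3) and the PBAF subunit BAF180 (Pbrm1) are known from genetic work to be needed for its development, and BRG1 acts there with the transcription factors TBX5, NKX2-5 and GATA4.

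Hearts of mouse embryos at stage E11.5, of a mixed C57Bl/6/BLKSW strain, were compared by genotype on 27 Affymetrix arrays. The groups were wild type (n = 6), Brg1+/- (n = 6), Tbx5+/- (n = 5), Nkx2-5+/- (n = 4), Tbx5+/- Brg1+/- (n = 3) and Nkx2-5+/- Brg1+/- (n = 3). Each mutant lacked 1 copy of each gene named. The labels give neither the extent of a deletion nor the cells it was made in, nor whether an array held a single embryo or a pool. P-values therefore measure the spread between these arrays, which may be in part technical. In whole hearts, fewer cells of a type and less RNA per cell cannot be told apart.

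The targeted genes were read first, as a check of the labels. Outside 2 arrays, the 11 arrays labelled with a Brg1 deletion lay between 9.16 and 9.64 for Smarca4 on the log2 scale, and the 14 labelled without it between 9.89 and 10.23. The array labelled Nkx2-5+/- replicate 3 went against its label, with Smarca4 at 9.57. Its Nkx2-5 was 9.40, while the other 3 arrays of its group lay between 8.48 and 8.63. Nkx2-5 did not separate the labels, since the other 6 arrays with an Nkx2-5 deletion ran from 8.48 to 9.235 and the 20 without it from 8.99 to 10.01. The array labelled Tbx5+/- Brg1+/- replicate 3 had Smarca4 at 10.01, within the range of the arrays labelled without a Brg1 deletion, and Nkx2-5 at 9.65. Whether these arrays were exchanged with each other or with others is not given in the labels and was not tested. Tbx5 was no lower in the arrays labelled Tbx5+/- (8.51 to 8.90) than in wild type (8.40 to 8.96), and since the deleted part is not given, its probe set may lie outside it. Results that rest on the 2 arrays are given with and without them. Since they were set apart by Smarca4, values of Smarca4 without them are a description and support nothing. The arrays were alike in overall level, with medians between 6.18 and 6.33. The 12 cardiomyocyte genes averaged 12.06 in wild type and 11.64 in Nkx2-5+/-. The 14 measured erythroid genes averaged 9.08 in wild type (8.34 to 10.08), 10.1 in Brg1+/- (8.92 to 10.87), 9.11 in Tbx5+/-, 10.5 in Nkx2-5+/- (8.94 to 11.13), 9.34 in Tbx5+/- Brg1+/- and 8.94 in Nkx2-5+/- Brg1+/-.

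Promoter sequences are shown for the 4 genes of the set that passed the test in Nkx2-5+/- hearts, because they carry that result and because they differ in base composition. Each is the 250 bases before the annotated start, 5′ to 3′ on the gene's strand, from the RefSeq promoter table of build GRCm38.p6. Smarca1 is at chrX:47892614-47892863 on the minus strand, Smarcd3 at chr5:24602003-24602252 on the minus strand, Smarca2 at chr19:26604910-26605159 on the plus strand and Pbrm1 at chr14:31018888-31019137 on the plus strand. Capitals mark CpG dinucleotides.
Smarca1: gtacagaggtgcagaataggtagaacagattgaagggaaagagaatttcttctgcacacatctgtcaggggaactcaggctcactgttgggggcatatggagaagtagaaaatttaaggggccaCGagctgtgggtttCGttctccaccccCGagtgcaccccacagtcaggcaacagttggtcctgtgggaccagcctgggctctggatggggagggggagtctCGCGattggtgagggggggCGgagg
Smarcd3: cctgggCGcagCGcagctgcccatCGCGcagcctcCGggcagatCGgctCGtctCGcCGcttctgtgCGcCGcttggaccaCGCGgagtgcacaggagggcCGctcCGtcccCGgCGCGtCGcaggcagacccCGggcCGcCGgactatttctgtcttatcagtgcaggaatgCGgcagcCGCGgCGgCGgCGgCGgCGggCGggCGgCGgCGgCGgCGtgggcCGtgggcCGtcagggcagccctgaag
Smarca2: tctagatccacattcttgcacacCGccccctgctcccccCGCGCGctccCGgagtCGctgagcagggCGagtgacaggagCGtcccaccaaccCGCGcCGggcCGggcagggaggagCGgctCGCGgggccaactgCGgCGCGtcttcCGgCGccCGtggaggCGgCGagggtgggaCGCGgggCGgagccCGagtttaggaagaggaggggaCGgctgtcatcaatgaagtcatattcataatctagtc
Pbrm1: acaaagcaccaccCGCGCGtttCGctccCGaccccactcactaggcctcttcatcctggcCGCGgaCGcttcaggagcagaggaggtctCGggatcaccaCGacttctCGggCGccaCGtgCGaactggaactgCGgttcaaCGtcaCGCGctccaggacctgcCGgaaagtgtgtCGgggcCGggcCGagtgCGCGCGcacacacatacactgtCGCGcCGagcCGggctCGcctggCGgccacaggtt
Smarca1 held 6 CpG in this stretch, the same as the median of all 32851 promoters in the table, whereas Smarcd3 held 38, Pbrm1 31 and Smarca2 28. The table listed 27 of the 32 genes, and 25 of these lay above the median of all promoters, with a median of 25 CpG and a range from 4 (Smarcd2) to 51 (Phf10). Smarce1, Arid2, Bcl7a, Ss18 and Chd7 were not matched. The NKX2-5 element TNAAGTG was found on either strand in 0 of the 27 genes and in 10.1% of all promoters. The T-box site AGGTGTGA was found in 0 of the 27 and in 1.12% of all promoters. The letters AGATAA, a spelling of the GATA site, were found in 1, Chd4, and in 9.99% of all. Other spellings of these sites were not searched. The stretch shown for Smarcd3 holds TGATAA, another spelling of the GATA site, on the opposite strand (ttatca). Its share over all promoters was not counted. Such matches describe letters in a short window only. Most windows of the set held more CpG than the median promoter, so the shares over all promoters are not matched for base composition.

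Smarca4, which encodes the BRG1 ATPase, is the gene deleted in the Brg1 mutants. It was the gene of the set that moved with the Brg1 genotype. In wild type its signal was 9.95 at the lowest, 10.07 at the median and 10.16 at the highest, while the Brg1+/- arrays had 9.16, 9.36 and 9.45 at the same points. No array of either group reached the other. The Tbx5+/- arrays had 9.92, 10.02, 10.10, 10.11 and 10.23, and the Nkx2-5+/- arrays 9.89, 10.08, 9.57 and 10.06. Among the compound mutants the arrays had 9.51, 9.64 and 10.01 with the Tbx5 deletion, and 9.475, 9.26 and 9.60 with the Nkx2-5 deletion. The array at 9.57 in Nkx2-5+/- and that at 10.01 in the Tbx5 compound mutant stood apart from the rest of their groups.

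**Figure D1:**
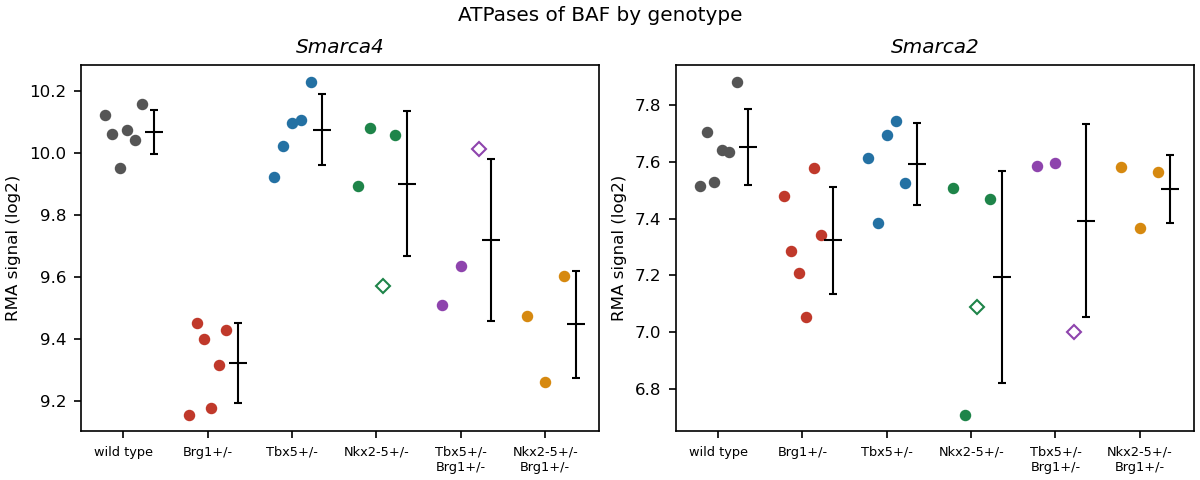
RMA signal (log2) of Smarca4 and Smarca2 in each array, by genotype; points are arrays, open diamonds the 2 arrays whose Smarca4 went against the label, and bars the mean ± SD. Smarca4 in Brg1+/- lies between 9.16 and 9.45, below every wild-type array (9.95 to 10.16), while Smarca2 overlaps between these groups.

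Against wild type, Smarca4 fell in Brg1+/- by 0.74 on the log2 scale, or 1.68-fold (SE 0.09, limma adjusted p = 0.000311). Since Smarca4 is the deleted gene, its fall bears on the label and says nothing of the rest of the set. It was the only one of the 32 genes called, against 0.01% of all genes. Smarca4 and 3 of the other 31 genes had an unadjusted p under 0.05, against 9.71% of all genes. Smarca4 was also the only one of the 32 whose arrays did not overlap with wild type, against 0.607% of all genes. The difference was between -0.84 and -0.71 in each of the 24 alternatives tried, and the call held in all of them. Among these, the fit without the 2 arrays against their labels was chosen on Smarca4 and supports nothing. Its paralog Smarca2, the alternative motor BRM, stood at -0.33 (SE 0.12, adjusted p = 0.43), so the data show no rise of BRM in Brg1+/- hearts, and the 95% interval of -0.58 to -0.07 lies below 0. Smarca2 arrays ran from 7.05 to 7.58 in Brg1+/- and from 7.515 to 7.88 in wild type. With the erythroid mean, which was higher in Brg1+/-, as a covariate, Smarca4 stood at -0.84 (SE 0.10) and Smarca2 at -0.27 (SE 0.14).

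None of the 31 genes other than Smarca4 was called in Brg1+/- hearts against wild type. For all 31 genes other than Smarca4 the 95% interval lay within a 1.5-fold change in either direction, as it did for 93.7% of all genes. Of the 32 genes, 24 (75%) were below 0, compared with 56.3% of all genes, and their median difference was -0.07 against -0.02 for all genes. After Smarca4 the lowest was Bcl11a, a zinc-finger protein that can join BAF and is best known in blood and nerve cells, at -0.34 (SE 0.10, adjusted p = 0.399). Bcl11a ran from 7.33 to 7.74 in Brg1+/- and from 7.65 to 7.996 in wild type, overlapping at the ends. Chd4, the ATPase of the NuRD complex, stood at -0.18 (SE 0.08) and Smarca1, the ISWI ATPase SNF2L, at -0.20 (SE 0.11), neither called.

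The loss of a Brg1 copy was also read on each transcription factor background. Against Tbx5+/-, Smarca4 in Tbx5+/- Brg1+/- stood at -0.35 (SE 0.12, adjusted p = 1), and at -0.50 without the 2 arrays that went against their labels. None of the 32 genes was called there, against 0% of all genes, with 494 genes (2.48%), 1 of them in the set, at an unadjusted p under 0.05. Arrays of the 2 groups overlapped for all 32 genes, while 3.65% of all genes did not overlap. Against Nkx2-5+/-, Smarca4 in Nkx2-5+/- Brg1+/- stood at -0.45 (SE 0.13, adjusted p = 0.0816), and at -0.56 without the 2 arrays. Averaged over the 3 backgrounds, Smarca4 fell by 0.52 (SE 0.07, limma adjusted p = 0.000311). It was the only gene of the set called in that average, against 0.00502% of all genes. It was also the only one at an unadjusted p under 0.05, against 4.05%. The call held in all 38 alternatives, but the alternative without the 2 arrays was chosen on Smarca4 and supports nothing.

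These 3 contrasts share no arrays, so their signs could be set side by side. Of the 32 genes, 5 were below 0 in all 3 contrasts and 1 above, or 18.8% with a shared sign, close to the 20.6% of all genes. The 5 were Smarca4, the scaffold subunit Smarcc1 (BAF155), the PBAF subunits Brd7 and Phf10, and Brd9, which defines non-canonical BAF. Smarcc1 stood at -0.04, -0.04 and -0.07 on the wild-type, Tbx5+/- and Nkx2-5+/- backgrounds. Brd9 stood at -0.05, -0.13 and -0.36, none of them called.

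**Figure D2:**
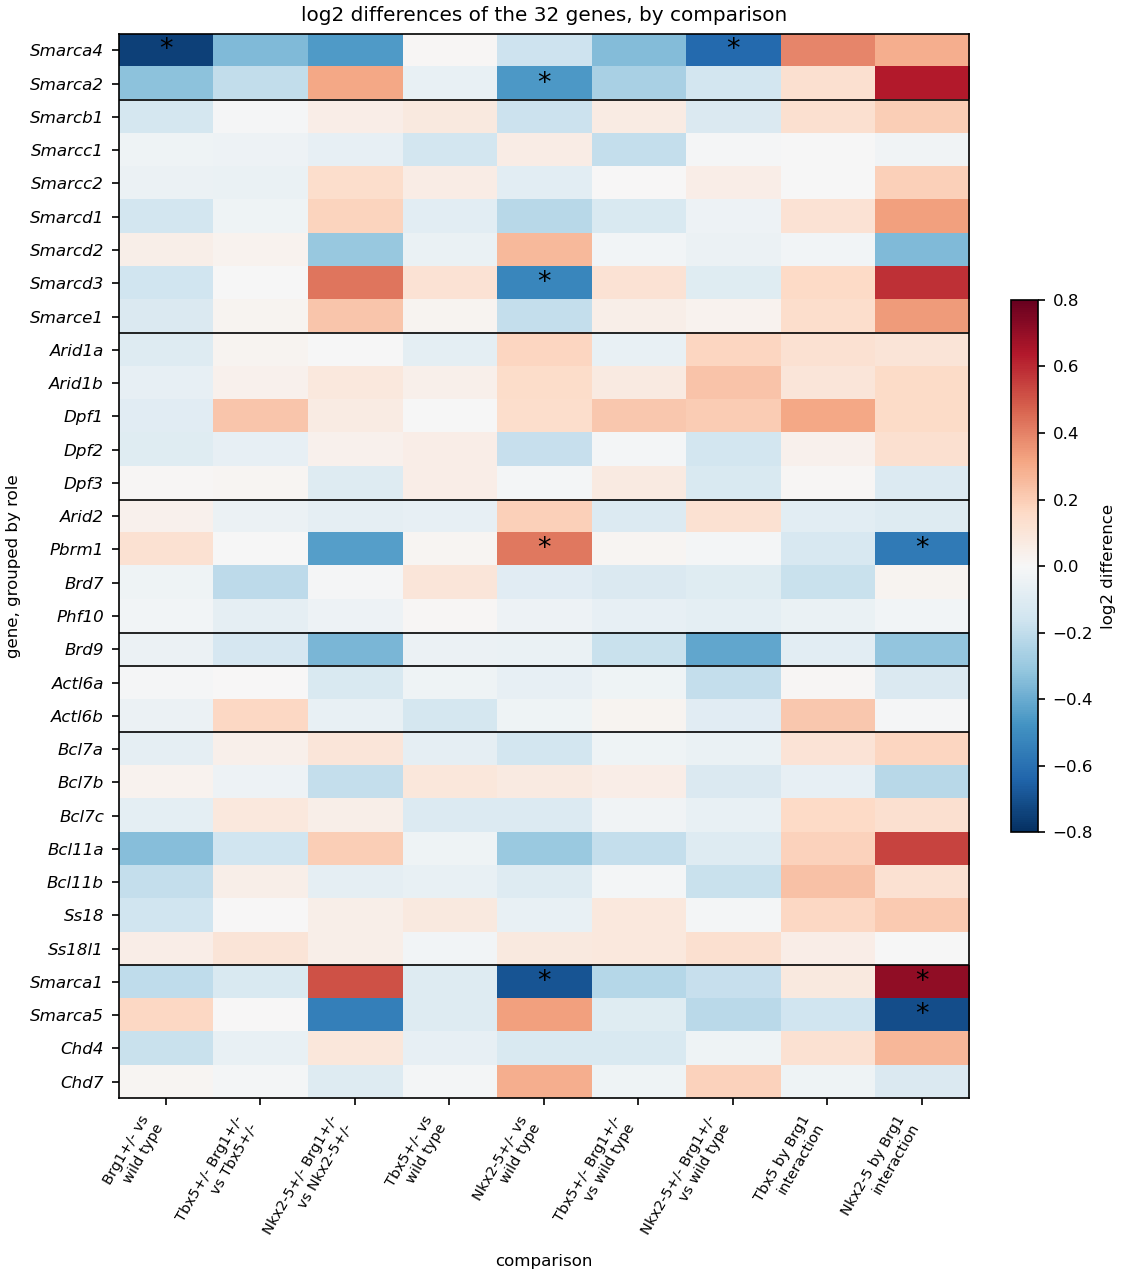
Fitted log2 differences of the 32 genes (vertical axis, grouped by role with black lines) in 9 comparisons (horizontal axis); red is higher and blue lower in the group named first or, for an interaction, a positive and a negative value, and stars mark limma adjusted p under 0.05. The 9 stars fall on Smarca4, Smarca2, Smarcd3, Pbrm1, Smarca1 and Smarca5, with 4 of them in Nkx2-5+/- against wild type.

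In Tbx5+/- hearts none of the 32 genes was called against wild type, against 0% of all genes, with 788 genes (3.95%), 0 of them in the set, at an unadjusted p under 0.05. Arrays overlapped with wild type for all 32 genes, while 0.582% of all genes did not overlap. The differences ran from -0.15 to 0.12. For all 31 genes other than Smarca4 the 95% interval lay within a 1.5-fold change, as it did for 95.1% of all genes. Smarca4 stood at 0.01 (SE 0.10), and Smarcd3, which encodes the heart-enriched subunit BAF60c, at 0.12 with arrays between 8.995 and 9.30 against 8.97 to 9.23 in wild type. Against wild type, Tbx5+/- Brg1+/- hearts likewise had 0 of 32 genes called, against 0% of all genes, with 873 genes (4.38%), 1 of them in the set, at an unadjusted p under 0.05. Arrays overlapped for all 32 genes, while 2.35% of all genes did not overlap. Smarca4 stood there at -0.35 (SE 0.12, adjusted p = 0.979). The interaction of Tbx5 with Brg1, which is the Brg1 difference on the Tbx5+/- background minus that on the wild-type background, called 0 of 32 genes against 0% of all genes, with 606 genes (3.04%), 1 of them in the set, at an unadjusted p under 0.05. For Smarca4 this interaction stood at 0.39 (SE 0.15, adjusted p = 1), and at 0.24 without the 2 arrays.

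In Nkx2-5+/- hearts Smarca1, Smarcd3 and Smarca2 fell and Pbrm1 rose against wild type. These 4 of 32 genes compare with 7.89% of all genes called, 2.72% higher and 5.16% lower, and 11 of 32 had an unadjusted p under 0.05 beside 22.3% of all genes. Arrays did not overlap with wild type for 3 of them, Smarca1, Smarca2 and Pbrm1, beside 2.49% of all genes. Their median difference over the set was -0.06, with -0.01 for all genes.

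Smarca1 encodes SNF2L, an ISWI-family ATPase that spaces nucleosomes. Its signal in Nkx2-5+/- was 8.67, 7.98, 8.75 and 8.43, and in wild type it was 8.98 at the lowest, 9.16 at the median and 9.28 at the highest. All 4 Nkx2-5+/- arrays lay below wild type. Smarca1 fell by 0.69 (SE 0.12, limma adjusted p = 0.00332), the largest difference in the set. The gene is X-linked and Y-linked genes were high in some arrays and low in others. With the mean of the Y-linked genes as a covariate the difference was also -0.69 (limma adjusted p = 0.00423). That mean was 4.52 in wild type and 4.70 in Nkx2-5+/-, so the covariate could move this difference little. In Nkx2-5+/- Brg1+/- it was 6.375, and the Smarca1 differences given below for that group are not adjusted for it.

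Smarcd3, the heart-enriched BAF60c that links BAF to cardiac transcription factors, was 8.46, 8.14, 9.18 and 8.25 in Nkx2-5+/-. In wild type it was 8.97 at the lowest, 8.99 at the median and 9.23 at the highest. Replicates 1, 2 and 4 lay below all wild-type arrays, and replicate 3, the array that went against its label, lay within them. Smarcd3 fell by 0.52 (SE 0.14, limma adjusted p = 0.0221), and by 0.75 without the 2 arrays (adjusted p = 5.11e-05). The related subunits Smarcd1 and Smarcd2 stood at -0.22 and 0.26, neither called.

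Smarca2 was 7.509, 6.71, 7.09 and 7.47 in Nkx2-5+/-, with wild type from 7.515 to 7.88 and a median of 7.64. The arrays did not overlap, but replicate 1, at 7.509, lay next to the lowest wild-type array. Smarca2 fell by 0.46 (SE 0.14, limma adjusted p = 0.0395). Its call was lost in 14 of 22 alternatives, with adjusted p up to 0.514, against 6 for Smarcd3, 4 for Pbrm1 and 2 for Smarca1.

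Pbrm1 encodes BAF180, the polybromo subunit of PBAF that reads acetylated histones. It was 12.03, 11.84, 11.66 and 12.14 in Nkx2-5+/-, against 11.36 at the lowest, 11.51 at the median and 11.62 at the highest in wild type. All 4 arrays lay above wild type, replicate 3 by the least. Pbrm1 rose by 0.42 (SE 0.10, limma adjusted p = 0.0151). Its 3 probe sets stood between 0.38 and 0.42, of which 1 was called. The other PBAF genes Arid2, Brd7 and Phf10 stood at 0.19, -0.09 and -0.04, none called.

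**Figure D3:**
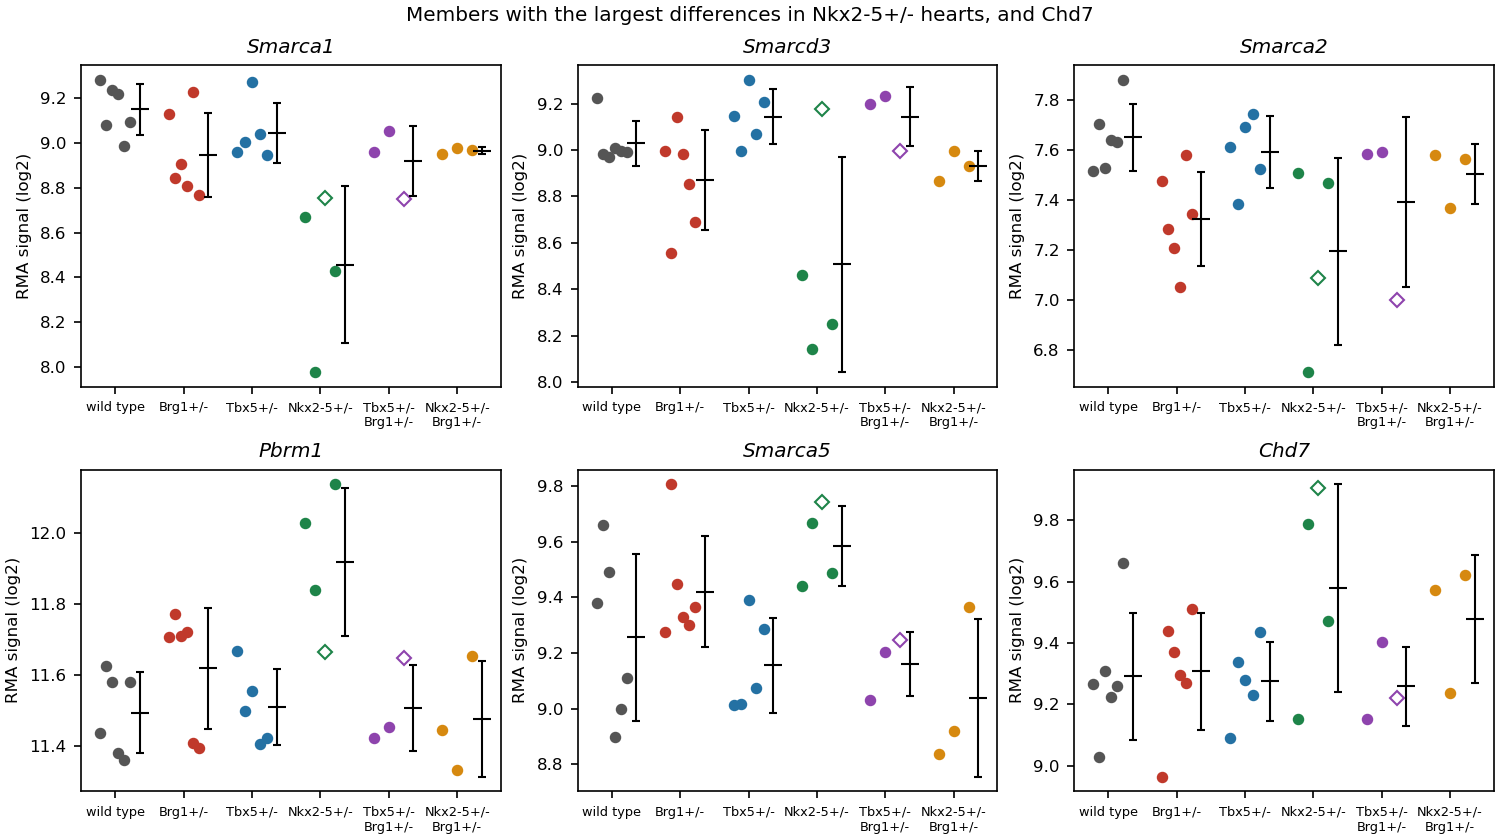
RMA signal (log2) in each array by genotype for Smarca1, Smarcd3, Smarca2, Pbrm1, Smarca5 and Chd7; points are arrays, open diamonds the 2 arrays whose Smarca4 went against the label, and bars the mean ± SD. In Nkx2-5+/-, Smarca1 arrays reach no higher than 8.75 and Pbrm1 arrays no lower than 11.66, while the Nkx2-5+/- Brg1+/- arrays of Pbrm1 (11.33 to 11.65) lie with wild type.

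Other members stood apart from wild type in Nkx2-5+/- without passing the test. Smarca5, the ISWI ATPase SNF2H, stood at 0.33 (SE 0.14, adjusted p = 0.141), with arrays from 9.44 to 9.74 against 8.90 to 9.66 in wild type. Chd7, the remodeller mutated in CHARGE syndrome, which includes heart defects, stood at 0.29 (SE 0.13, adjusted p = 0.186). All 30 probe sets of Chd7 stood above 0, between 0.23 and 0.46, and 1 of them was called. They read the same gene in the same arrays, so their shared sign is not replication. Against wild type, 27 of the 30 were above 0 in Brg1+/-, 4 in Tbx5+/-, 0 in Tbx5+/- Brg1+/- and 29 in Nkx2-5+/- Brg1+/-, with 0 called in each. Bcl11a stood at -0.30 (SE 0.11, adjusted p = 0.0996). For 26 of the 31 genes other than Smarca4 the 95% interval lay within a 1.5-fold change, or 83.9% beside 83% of all genes.

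The calls in Nkx2-5+/- moved with single arrays and with blood-cell genes. Without the 2 arrays against their labels 10 of the 32 genes were called, beside 21.8% of all genes: Smarca1, Smarcd3, Smarca2, Pbrm1, and with them Smarcb1, Smarcd1, Smarcd2, Smarce1, Dpf2 and Bcl7a. Without Nkx2-5+/- replicate 3 alone 9 were called, without replicate 2 or replicate 4 only Smarca1 was, and without wild-type replicate 1 Smarca1 and Pbrm1 were. The erythroid genes averaged 11.03, 11.13 and 10.89 in Nkx2-5+/- replicates 1, 2 and 4 and 8.94 in replicate 3, and the cardiomyocyte genes 11.49, 11.38 and 11.33 against 12.37. With the erythroid mean as a covariate 0 of the 32 genes were called, beside 0.0201% of all genes. Smarca1 then stood at -0.54 (SE 0.13), Smarca2 at -0.37 (SE 0.16), Smarcd3 at -0.33 (SE 0.15) and Pbrm1 at 0.19 (SE 0.08). In a fit of the 2 compared groups alone, 0 of 32 were called, beside 0.0201% of all genes. What part of these differences goes with blood-cell content was not tested beyond this covariate.

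**Figure D4:**
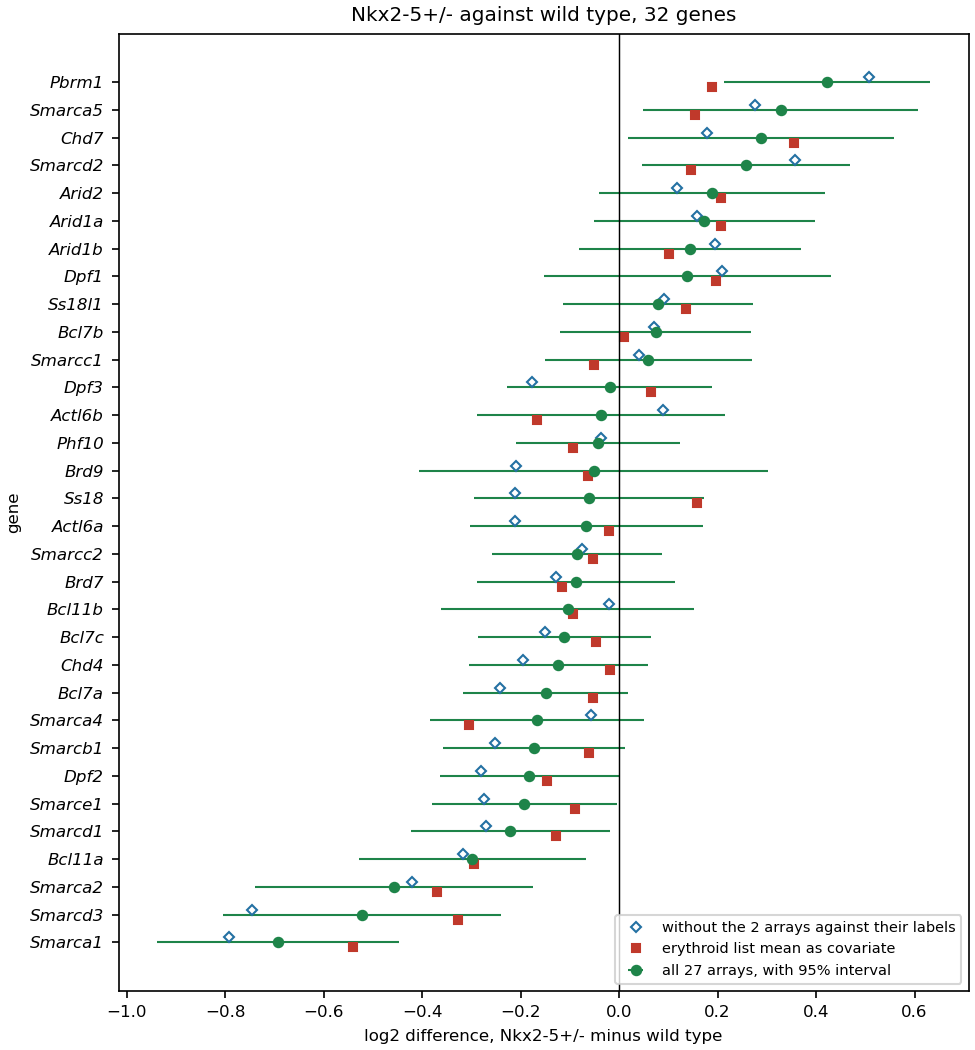
Log2 difference of each of the 32 genes between Nkx2-5+/- and wild type (horizontal axis), with its 95% interval over all 27 arrays (green), without the 2 arrays against their labels (blue diamonds) and with the erythroid mean as a covariate (red squares). Smarcd3 moves from -0.52 to -0.75 without the 2 arrays and to -0.33 with the covariate, and Pbrm1 from 0.42 to 0.51 and 0.19.

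**Figure D5:**
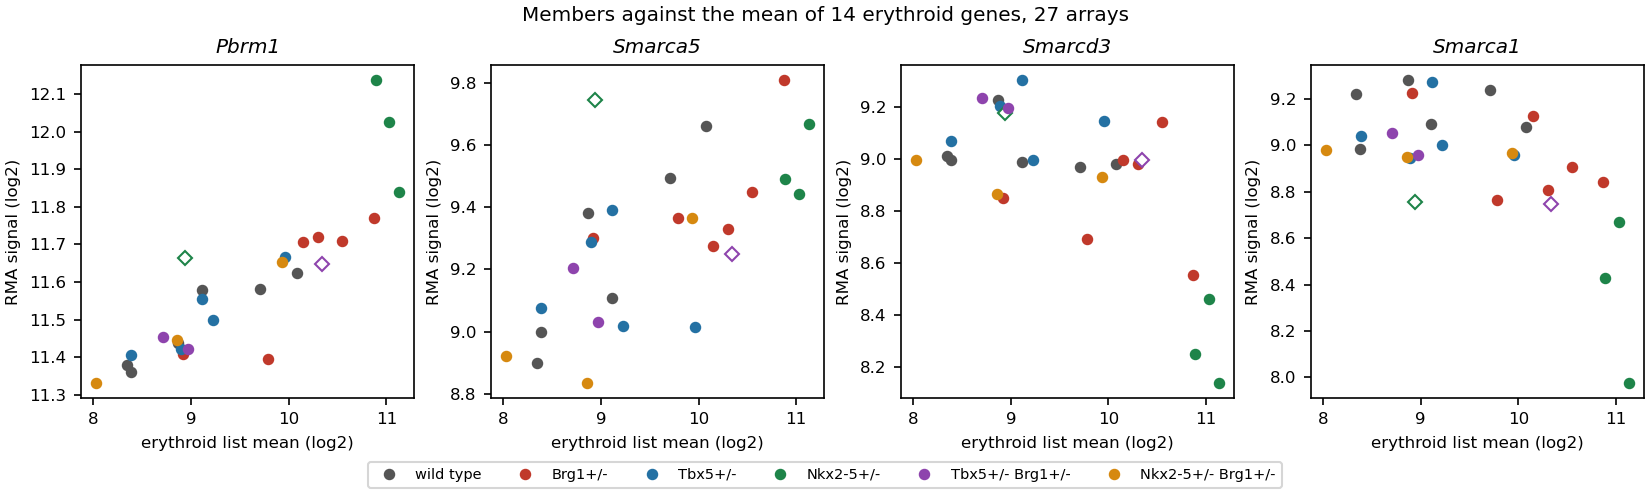
RMA signal (log2) of Pbrm1, Smarca5, Smarcd3 and Smarca1 (vertical axes) against the mean of 14 erythroid genes (log2, horizontal axes) in the 27 arrays, coloured by genotype; open diamonds are the 2 arrays whose Smarca4 went against the label. Nkx2-5+/- replicates 1, 2 and 4 have the highest erythroid means (10.89 to 11.13) and the highest Pbrm1 (11.84 to 12.14).

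In Nkx2-5+/- Brg1+/- hearts the genes that had moved in Nkx2-5+/- lay near wild type, and so did the erythroid mean (8.94 against 9.08). Smarcd3 was 8.87, 8.998 and 8.93, and stood at -0.10 against wild type. Smarca2 was 7.58, 7.37 and 7.56, at -0.15, and Pbrm1 was 11.45, 11.33 and 11.65, at -0.02. Smarca1 was 8.95, 8.98 and 8.97, at -0.18, just below the lowest wild-type array. Only Smarca4, the Brg1 gene itself, was called against wild type, 1 of 32 genes beside 0.0351% of all genes (0.0251% lower). An unadjusted p under 0.05 was reached by 2 of 32, beside 7.39% of all genes. Smarca4 fell by 0.62 (SE 0.12, limma adjusted p = 0.0391). Smarca4 and Smarca1 did not overlap with wild type, beside 3.98% of all genes. The Smarca4 call was lost in 13 of 21 alternatives, in which the adjusted p reached 0.665, while the difference stayed below 0 in all of them. Without either of replicates 1 and 2, or without any 1 of the 6 wild-type arrays, it was not called, with differences from -0.64 to -0.53. Brd9 stood at -0.41 (SE 0.19) and Arid1b, an alternative DNA-binding subunit of canonical BAF, at 0.23 (SE 0.12), neither called.

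Set directly against Nkx2-5+/-, 0 of 32 genes were called in Nkx2-5+/- Brg1+/-, beside 0.0401% of all genes, with 3063 genes (15.4%), 6 of them in the set, at an unadjusted p under 0.05. Pbrm1 stood at -0.44, Smarca1 at 0.51 (both adjusted p = 0.0816), Smarca5 at -0.55 (adjusted p = 0.0887) and Smarcd3 at 0.43 (adjusted p = 0.178). Pbrm1, Smarca1 and Smarca5 did not overlap between the 2 groups, beside 7.71% of all genes. Without the 2 arrays against their labels 5 genes were called, beside 11.9% of all genes: Pbrm1, Smarca1, Smarcd2, Smarcd3 and Smarca4, the gene by which those arrays were set apart. Leaving out Nkx2-5+/- replicate 3 alone also called 5, Smarca4 included, and leaving out Nkx2-5+/- Brg1+/- replicate 3 called 3. Cell type markers moved in the same contrast. All 14 erythroid genes were below 0 (median -1.56) and all 12 cardiomyocyte genes above 0 (median 0.41). With the erythroid mean as a covariate 1 of all 19935 genes was called. What part of these differences goes with blood-cell content was not tested further.

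The interaction of Nkx2-5 with Brg1 tests whether the Brg1 difference was the same with and without the Nkx2-5 deletion. It was called for 3 of 32 genes, beside 4.95% of all genes. Of the 3, 1 was positive, beside 2.23% of all genes, and 2 were negative, beside 2.72%, and 9 of 32 had an unadjusted p under 0.05, beside 20.2%. Smarca1 had 0.71 (SE 0.18, limma adjusted p = 0.0242), with Brg1 differences of -0.20 on the wild-type and 0.51 on the Nkx2-5+/- background. Pbrm1 had -0.56 (SE 0.15, adjusted p = 0.0304), from 0.12 and -0.44. Smarca5 had -0.71 (SE 0.20, adjusted p = 0.0397), from 0.16 and -0.55. In all 3 the Brg1 difference had opposite signs on the 2 backgrounds, but it was called on neither. Being chosen by a large interaction itself favours opposite signs.

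Smarca5 was 9.44, 9.67, 9.74 and 9.49 in Nkx2-5+/-, and 8.84, 8.92 and 9.36 in Nkx2-5+/- Brg1+/-, so these groups did not overlap. In Brg1+/- it ran from 9.28 to 9.81 and in wild type from 8.90 to 9.66, overlapping each other. The 3 probe sets assigned to both Smarca5 and the pseudogene Smarca5-ps had interactions from -0.51 to -0.37, none called, and in a fit of all probe sets the gene's own probe set was not called either (adjusted p = 0.0577). Smarca2 (0.64), Smarcd3 (0.59) and Bcl11a (0.54) were not called, with adjusted p of 0.0658, 0.0904 and 0.0571.

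These interaction calls rested on few arrays, and markers of several cell types moved in the same contrast. All 14 erythroid genes were negative (median -2.61, 13 called), and all 12 cardiomyocyte genes (median 0.53, 1 called), all 5 epicardial genes (median 0.78, 1 called) and all 7 leukocyte genes (median 0.40, 2 called) were positive. The part of cell types other than erythroid cells in these interactions was not tested. With the erythroid mean as a covariate 0 of 32 genes were called, beside 0% of all genes, and Smarca1, Smarca5 and Pbrm1 stood at 0.44, -0.40 and -0.14. In a fit of the 4 groups alone 0 were called, beside 0.125% of all genes, and without the 2 arrays against their labels 8 were, beside 16.3%. Leaving out Nkx2-5+/- replicate 2, or Nkx2-5+/- Brg1+/- replicate 1 or 2, left 0 called. Without Nkx2-5+/- replicate 4, Brg1+/- replicate 2, or wild-type replicate 1, 4 or 5, only Smarca1 was called. Without Nkx2-5+/- replicate 3 it was 7, and without Brg1+/- replicate 5 it was 5.

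Over all 6 groups together, the F test called 2 of 32 genes, Smarca4 (limma adjusted p = 0.000123) and Smarca1 (0.019), beside 3.19% of all genes (19.2% at an unadjusted p under 0.05). Smarcd3 (0.0536) and Pbrm1 (0.0682) came next. Both were called without the 2 arrays against their labels, which gave 4 of 32 genes beside 17% of all genes. Without Nkx2-5+/- replicate 3 alone it was 4, and without replicate 2 or 4 it was 1.

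The remaining subunits are described by role. Of the core and scaffold, Smarcb1 (BAF47), Smarcc1, Smarcc2 (BAF170), Smarcd1, Smarcd2 and Smarce1 (BAF57) had group means spanning between 0.14 and 0.31, none called by the F test. Among the subunits that define canonical BAF, Arid1a, which carries the DNA-binding ARID domain, spanned 0.28 from Brg1+/- (8.73) to Nkx2-5+/- (9.0025). Its arrays ran from 8.66 to 9.18 in wild type, 8.36 to 8.98 in Brg1+/-, 8.57 to 8.88 in Tbx5+/-, 8.88 to 9.19 in Nkx2-5+/-, 8.67 to 8.89 in Tbx5+/- Brg1+/- and 8.85 to 9.10 in Nkx2-5+/- Brg1+/-. Each group overlapped wild type. Arid1b and Dpf2 spanned 0.29 and 0.23, the PBAF genes Arid2, Brd7 and Phf10 spanned 0.30, 0.21 and 0.09, and Chd4 and Chd7 spanned 0.18 and 0.32, none called by the F test.

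Dpf3, the heart-expressed subunit that binds modified histones, spanned 0.19 between its group means (F test adjusted p = 0.859). Wild-type arrays lay between 7.08 and 7.45, Brg1+/- arrays between 7.17 and 7.43, and Tbx5+/- arrays between 7.24 and 7.34. The Nkx2-5+/- arrays had 7.01, 7.20, 7.71 and 7.03. The compound arrays had 7.28, 7.35 and 7.35 with the Tbx5 deletion, or 7.15, 7.12 and 7.15 with the Nkx2-5 deletion. The highest of all was the array labelled Nkx2-5+/- replicate 3.

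Brd9 was the most variable member between arrays of a group, with a residual SD of 0.29. It ran from 7.80 to 8.68 in wild type, 7.78 to 8.51 in Brg1+/-, 7.91 to 8.43 in Tbx5+/-, 7.69 to 8.59 in Nkx2-5+/-, 7.80 to 8.15 in Tbx5+/- Brg1+/- and 7.46 to 7.97 in Nkx2-5+/- Brg1+/-. The groups overlapped. Actl6a, the actin-related subunit BAF53a of dividing cells, spanned 0.19, with arrays from 9.01 to 9.34 in wild type and 8.99 to 9.38 in Brg1+/-. It ran from 9.01 to 9.33 in Tbx5+/-, 8.82 to 9.56 in Nkx2-5+/-, 9.10 to 9.23 in Tbx5+/- Brg1+/- and 8.85 to 9.17 in Nkx2-5+/- Brg1+/-.

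The subunits of neuronal BAF, Actl6b (BAF53b) and Dpf1 (BAF45b), spanned 0.17 and 0.31 between group means, neither called. The array Brg1+/- replicate 3 had a mean of 6.85 over 9 neuronal genes, against 5.35 to 5.77 in the other 26 arrays, and Actl6b was 5.43 and Dpf1 6.15 there. Both values lay within the range of the other groups. Among the accessory subunits Bcl7a, Bcl7b, Bcl7c, Bcl11b, Ss18 and Ss18l1, spans lay between 0.11 and 0.24 and none was called. Bcl11a spanned 0.34 from Brg1+/- (7.504) to wild type (7.84). Its Tbx5+/- arrays ran from 7.76 to 7.91, and its Nkx2-5+/- arrays had 7.81, 7.12, 7.61 and 7.66. The compound arrays had 7.76, 7.59 and 7.61 with the Tbx5 deletion, or 7.93, 7.49 and 7.81 with the Nkx2-5 deletion.

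Further chromatin genes were read from lists. Of 35 other remodeller subunits, 4 rose and 0 fell in Nkx2-5+/- against wild type, beside 2.72% and 5.16% of all genes. They were Bicral, a subunit of non-canonical BAF (0.59, limma adjusted p = 0.00898), Cecr2, a partner of ISWI (0.45, 0.0219), the ATPase Ep400 (0.36, 0.0415) and the NuRD subunit Mbd2 (0.42, 0.0456). In the Nkx2-5 by Brg1 interaction 3 of the 35 were called, all negative, beside 4.95% of all genes called and 2.72% negative: Bicral (-0.71), Cecr2 (-0.65) and Mbd2 (-0.66). With the erythroid covariate 0 of all 19935 genes were called in that interaction, and 4 in Nkx2-5+/- against wild type. In every other comparison 0 of the 35 were called. Of 15 Polycomb genes, whose complexes repress genes that BAF opens, 14 were measured and 0 were called by limma in any comparison, beside 0% to 7.89% of all genes. In Nkx2-5+/- 4 of the 14 had an unadjusted p under 0.05, beside 22.3% of all genes. The lowest p in Nkx2-5+/- were those of Jarid2 (0.27, adjusted p = 0.0679) and Suz12 (0.36, adjusted p = 0.099).

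Of 13 cardiac genes tied to BAF, 7 fell and 0 rose in Nkx2-5+/-, beside 5.16% and 2.72% of all genes: Hopx (-0.89), Nkx2-5 itself (-0.85), the atrial peptide gene Nppa (-0.78), the myosin genes Myh7 (-0.73) and Myh6 (-0.57), Tbx5 (-0.49) and Hand2 (-0.39). All 13 were below 0, as were 52.4% of all genes, in a group whose cardiomyocyte genes were lower and erythroid genes higher in 3 of its 4 arrays. Nppa, Myh6, Myh7 and Actc1 belong to both the cardiac and the cardiomyocyte lists, and Nkx2-5 is the deleted gene. With the erythroid covariate 4 of all 19935 genes were called there. In the Nkx2-5 by Brg1 interaction Tbx5 (0.88), Hand2 (0.64) and Gata4 (0.65) were called, all positive, beside 4.95% of all genes called and 2.23% positive, and none of the 3 was called with the erythroid covariate. Among the comparisons of Brg1+/- and of the Tbx5 groups 0 of the 13 were called. The largest of these values was Gja5, the conduction-system connexin-40, at -1.10 in Tbx5+/- Brg1+/- against wild type (SE 0.20, adjusted p = 0.102).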

How the data were processed

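RNA of embryonic hearts was measured on 27 arrays. The deposited values are log2 signals on the RMA scale. Per the submitters' processing notes, the authors used RMA in Affymetrix Power Tools, with no version named; the genome build is not given in the sources used here. They were used as deposited. Of 28815 probe sets, 21780 had a single symbol in the platform annotation, 1605 had several and 5430 were not listed, and the probe set with the highest mean was kept for each of 19935 genes. Levels of different probe sets are not comparable.

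A mean per genotype was fitted with limma 3.58.1 in R 4.3.3 over all 27 arrays (21 residual and 6.71 prior degrees of freedom). All tests are two-sided. Benjamini-Hochberg adjustment ran over all genes within a comparison, and a gene was called under 0.05. Comparisons with wild type share its arrays. The number of arrays limits the precision.

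The members, lists, comparisons and alternatives were chosen with earlier results of these data known. By rule, each member called in a comparison, the member with the smallest F test p of each role, Smarca4, Smarca2, Smarcd3 and Dpf3 are given by array, and up to 4 called genes of the other remodeller and Polycomb lists are named. Of 164 list genes, 159 were measured, and the others are not reported here. The lists for liver, leukocytes, endothelium, epicardium and cushion mesenchyme averaged, by group, 5.70 to 6.40, 5.92 to 6.22, 9.11 to 9.41, 9.36 to 9.97 and 8.45 to 8.66. Over 55 pairs of arrays with the same replicate number, deviations from the group means correlated between -0.453 and 0.405, with 18 pairs over 0.1. Pairs of unlike number were not read beside them, so whether the numbers pair arrays was not tested. Alternatives were quantile normalization, equal array medians, a filter on low genes, a trended prior, array weights, averaging the probe sets of each gene, a block for the replicate number, erythroid and Y-linked covariates, the compared groups alone, arrays left out and, added after seeing the data, all probe sets. Figures were drawn with matplotlib 3.10.9.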

Additional observations from a re-analysis of the deposited data

Results flagged for a closer look

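In 128 sets of 4 to 6 arrays, a gene in a group, 10 had an array far from the others by Dixon's criterion, which chance meets in about 1 in 20 sets. The array stood above the others for Smarcd3 in wild type replicate 1 (9.226, the others 8.971 to 9.01), Arid1a in wild type replicate 6 (9.179, the others 8.661 to 8.845), Bcl7c in wild type replicate 2 (8.793), Arid1b in Nkx2-5+/- replicate 4 (8.693, the others 8.174 to 8.225), Ss18l1 in Nkx2-5+/- replicate 2 (6.917), Smarca1 in Tbx5+/- replicate 3 (9.273), Actl6b in Tbx5+/- replicate 1 (5.293) and Smarca5 in Brg1+/- replicate 2 (9.807). It stood below for Smarce1 in Tbx5+/- replicate 1 (10.262) and Arid1b in Brg1+/- replicate 1 (7.692, the others 8.068 to 8.286).

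By limma's interaction test the Brg1 difference was called as unlike with and without the Nkx2-5 deletion for Pbrm1 (-0.564), Smarca1 (0.712) and Smarca5 (-0.709). These calls were lost in 11, 5 and 14 of 31 alternatives, among them the erythroid covariate and the compared groups alone.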

How the results depend on the processing

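Smarca4 kept its direction in every alternative of all comparisons but Tbx5+/- with wild type, where 0.0076 became -0.0104 after quantile normalization and ranged from -0.0308 to 0.0459 with an array left out. Member counts stayed at 1 for Brg1+/- and for the mean Brg1 difference, and at 0 for the comparisons of the Tbx5 groups, under the alternatives run. For Nkx2-5+/- against wild type the 4 members became 0 with the erythroid covariate or the compared groups alone, 10 without the arrays against their labels, and 1 to 9 with an array left out. For Nkx2-5+/- Brg1+/- against wild type the 1 became 0 after quantile normalization (Smarca4 -0.57), with the Y-linked covariate (-0.61), all probe sets (-0.62) or the groups alone (-0.62), 2 with array weights, and 0 to 1 with an array left out (-0.70 to -0.53). With the replicate number as a block it was 0, with Smarca4 at -0.58, and against Nkx2-5+/- the block gave 1 (Smarca5); the block changed no other count by over 1.5 times. Against Nkx2-5+/- the 0 also became 1 after quantile normalization, 7 with array weights (Smarca4 -0.52), 5 without the doubted arrays (-0.56, a gene they were chosen on), and 0 to 5 with an array left out (-0.56 to -0.36). The 3 interaction members became 5 once genes of low mean were removed (10.4% of the genes left) and 10 with array weights. They became 0 with the erythroid covariate or the groups alone, 8 without the doubted arrays and 0 to 7 with an array left out. The 2 members of the F test became 4 after quantile normalization (4.26% of all genes), 4 without the lowest genes (7.52%), 11 with array weights (29%), 1 with the erythroid covariate (0.125%), 4 without the doubted arrays (17%), and 1 to 4 with an array left out. Array weights raised the calls over all genes too, from 7.89% to 18.8% in Nkx2-5+/- and from 4.95% to 21.2% in the interaction. The causes were not tested. With an array left out, Smarca4 ranged from -0.77 to -0.71 in Brg1+/-, -0.23 to -0.06 in Nkx2-5+/- and -0.49 to -0.24 in Tbx5+/- Brg1+/- against wild type, -0.50 to -0.25 in Tbx5+/- Brg1+/- against Tbx5+/-, 0.24 to 0.49 and 0.18 to 0.38 in the Tbx5 and Nkx2-5 interactions, and -0.57 to -0.48 in the mean.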
